A study of Saccharomyces cerevisiae with 1 sample.

Results

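Domain VI is the last domain of the 25S rRNA of the large ribosomal subunit of Saccharomyces cerevisiae. It was taken here as nucleotides 3001 to 3396, counted from the 5′ end of the 25S, which are 396 of the 3396 nucleotides in the deposited pileup. The rule that sets these limits uses nucleotide numbers and no measured value, although it was chosen with earlier results of these data known. The data come from 1 CRAC library of the untagged BY4742 strain. In CRAC, proteins are cross-linked to RNA with UV light in living cells, purified through a tag in successive steps, and the attached RNA fragments are sequenced. This strain carries no tag on any protein, so its library holds the fragments that come through the purification without one. The cells were grown in minimal medium lacking tryptophan, with glucose, to an optical density of 0.6, and the cDNA was amplified by 16 PCR cycles. No other library was analysed here and the control has no replicate, so all values below are a description of this library, with no standard deviation and no test.

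In the folded large subunit, domain VI holds the sarcin-ricin loop, the rRNA hairpin against which the GTPase elongation factors dock during translation. Ricin removes a single adenine from this loop and α-sarcin cuts the chain next to it, and either lesion stops protein synthesis. The domain also carries eukaryotic expansion segment 39, and it ends with the mature 3′ end of the 25S, which is made from the 3′ external transcribed spacer by Rnt1 cleavage and exonuclease trimming.

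RefSeq lists 2 copies of the 25S gene on chromosome XII in the R64 assembly, the build that the submitters name. The pileup is given for RDN25-1, chrXII:451786-455181, whose length of 3396 nucleotides is that of the file. The locus tag places the gene on the Crick strand, so domain VI corresponds to chrXII:451786-452181 and its 3′ end has the lowest coordinate. Reads from identical copies of the repeat are not told apart in these values.

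Each nucleotide of the file has a number of hits, the reads that cover it, which the file header gives as hits per 100000 reads, and the numbers of substitutions and deletions found there. Several stretches of the domain show the range of its signal and are printed 5′ to 3′ with T for U. In the first, at 3012 to 3038, capitals mark the sarcin-ricin motif. In the second, 3229 to 3278, the capital marks the nucleotide with the most hits in the domain. In the last, 3375 to 3396, capitals mark the most covered nucleotide of the 3′ end, C3379, followed by T3380 and T3382, where changes were frequent.
sarcin-ricin hairpin: attgaacttAGTACGAGAggaacagtt
highest peak: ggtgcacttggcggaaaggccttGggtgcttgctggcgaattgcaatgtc
3′ end: aagcCTtTgttgtctgatttgt

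The control covered every nucleotide of domain VI, but very unevenly. Hits ranged from 8 at nucleotide 3010 to 5685 at nucleotide 3252, with a median of 361 and an interquartile range of 126 to 1522.5. The interval of 50 nucleotides in which hits stayed at or above 50% of the highest value (3229 to 3278) held 53.9% of the hits of the domain, and the last 22 nucleotides of the 25S held 12.1%. These intervals together covered 18.2% of the nucleotides of the domain and 66.0% of its hits. Outside them the median was 233 hits.

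**Figure D1:**
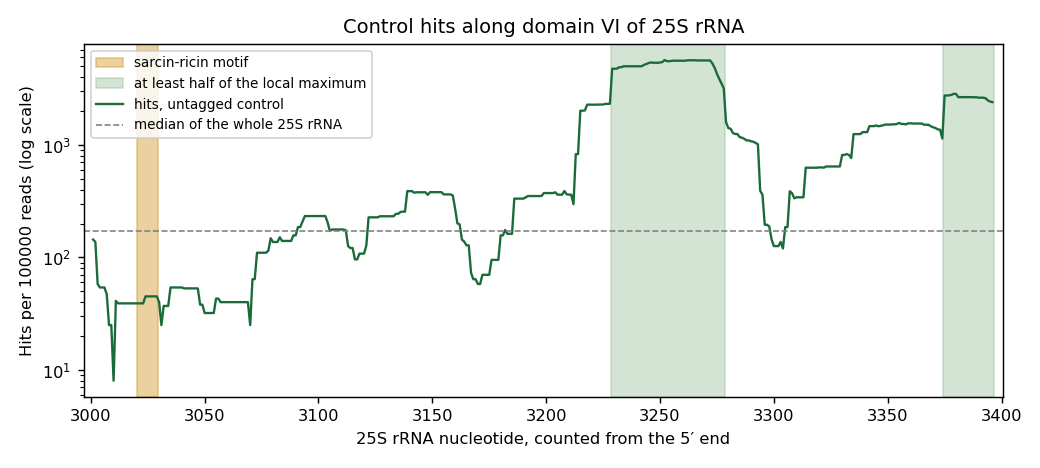
Hits of the untagged control at each nucleotide of domain VI (per 100000 reads, log scale) against the nucleotide number in the 25S rRNA. Green shading marks the intervals around the maxima of 5685 and 2847 hits that kept at least 50% of these values, orange shading the sarcin-ricin motif with 39 to 45 hits, and the dashed line the 25S median of 170 hits.

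The sarcin-ricin loop lay in the least covered part of the domain. The motif AGTACGAGA, which holds the strictly conserved loop, was found at 1 place in the 25S, at nucleotides 3021 to 3029 (chrXII:452153-452161), and its reverse complement at 0 places. Its 9 nucleotides had between 39 and 45 hits, with a median of 45, or 0.265 times the median of the whole 25S. Of the nucleotides of the 25S, 14.0% had fewer hits than this. A3027, the adenine that ricin removes, was covered by 45 hits and none carried a change. The whole motif had 4 substitutions and 0 deletions. These nucleotides were under the minimum of 100 hits, so changes per hit are not given for them.

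The low stretch around the loop ran from nucleotide 3003 to 3072. Over these 70 nucleotides hits stayed between 8 and 64, with a median of 40. The domain opened with 144 hits at nucleotide 3001, 64 fewer than at the last nucleotide of domain V, and reached its lowest value 9 nucleotides later. Hits were often identical from one nucleotide to the next, and the longest such plateaus lay here, with 40 hits at each of 13 nucleotides from 3057 to 3069 and 39 hits at each of 12 nucleotides from 3012 to 3023. Over the domain, 51.0% of nucleotides had exactly the hits of the nucleotide before them, against 57.3% in the rest of the 25S.

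Between nucleotides 3073 and 3212, coverage was intermediate. In windows of 36 nucleotides, median hits were 164.5 from 3073 to 3108, 229.5 from 3109 to 3144, 176.5 from 3145 to 3180 and 351.5 from 3181 to 3216. The highest value between 3073 and 3212 was 389 hits, reached at A3141 and again at G3208. A narrow gap of 13 nucleotides, 3167 to 3179, again fell under 100 hits, with 58 as its lowest value.

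The main peak rose in steps and not gradually. Hits went from 297 at nucleotide 3212 to 827 at 3213, from 827 to 2014 at 3215, and from 2324 at 3228 to 4757 at 3229. The last of these was the largest increase between neighbouring nucleotides in the domain. Hits then climbed slowly to the maximum of 5685 at G3252, which was 33.4 times the median of the 25S. This maximum stood little above its surroundings, since nucleotide 3267 still had 5637 hits. The 3′ side fell over several nucleotides, from 5633 at nucleotide 3271 to 3173 at 3278, and then to 1600 at 3279 in the largest single fall of the domain. A shoulder of 1013 to 1600 hits followed until nucleotide 3293 and dropped to 391 at nucleotide 3294. Over 3229 to 3278, 58.0% of the nucleotides were G or C.

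A valley with a lowest value of 120 hits at T3304 separated this peak from the 3′ end. From there hits rose stepwise, with 627 at nucleotide 3314, 1247 at 3335 and 1469 at 3342, and stayed between 1434 and 1569 from 3342 to 3370.

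At the 3′ end, hits increased once more and did not return to a low level before the RNA ended. They dropped to 1139 at nucleotide 3374 and rose to 2750 at 3375, a ratio of 2.41 between neighbours. The maximum of 2847 hits followed at C3379, 17 nucleotides before the end. Hits then fell by 448, to 2399 at nucleotide 3396, so that the last nucleotide kept 84.3% of the maximum. The fall came mainly in 2 places. Hits dropped from 2841 at nucleotide 3380 to 2659 at 3381, were almost level until 3393 (2600), and decreased to 2484, 2432 and 2399 over the last 3 nucleotides. The last nucleotide had more hits than 92.0% of the nucleotides of the 25S, whereas the first nucleotide of the 25S had 68 hits. Coverage at the last nucleotide was thus 35.3 times that at the first. The 3′ external transcribed spacer was not analysed here, so fragments that continue into the precursor and fragments that stop at the mature end cannot be told apart.

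**Figure D2:**
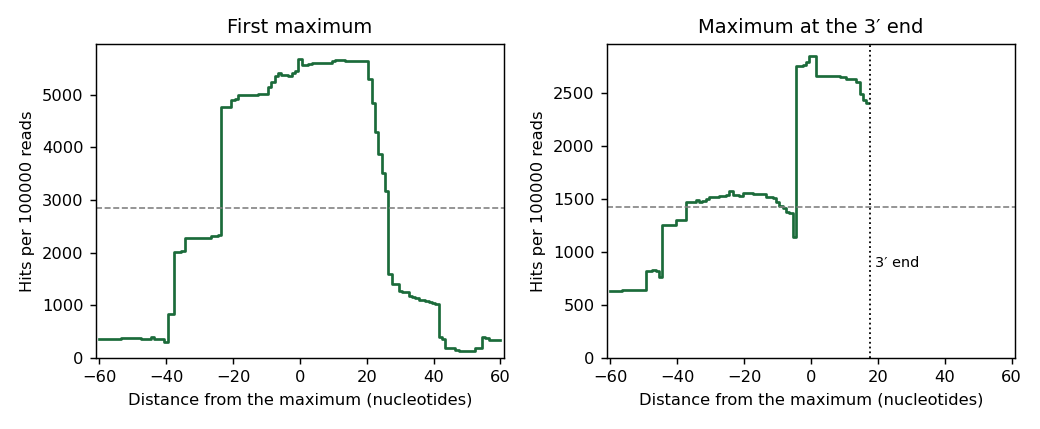
Hits per 100000 reads within 60 nucleotides of the 2 highest maxima of domain VI, at nucleotides 3252 and 3379, against the distance from the maximum. Dashed lines mark 50% of each maximum and the dotted line the end of the 25S. The first peak fell to 297 hits at nucleotide 3212 and to 120 at 3304, while the second still had 2399 hits at the last nucleotide.

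Whether domain VI was covered more or less than the rest of the 25S depended on the summary. Its median of 361 hits per nucleotide was 2.36 times that of the other 3000 nucleotides (153), and among the 6 domains, in the limits used here, only domain III had a higher median (443). Its mean of 1219 hits was 0.767 times that of the rest (1590). The rest holds the dominant peaks at nucleotides 2551 (57549 hits, domain V) and 2178 (13435 hits, domain IV). Leaving out the nucleotides within 65 of these maxima turned the direction of the ratio of means, to 4.07. Domain VI held 9.19% of all 25S hits on 11.7% of its nucleotides, and 37.1% when those nucleotides were left out. Among local maxima at least 100 nucleotides apart in the whole 25S, G3252 had rank 3 and C3379 rank 5. The 50 nucleotides of the peak at 3252 were fewer than those around the 2 dominant maxima, measured in the same way (59 and 60).

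**Figure D3:**
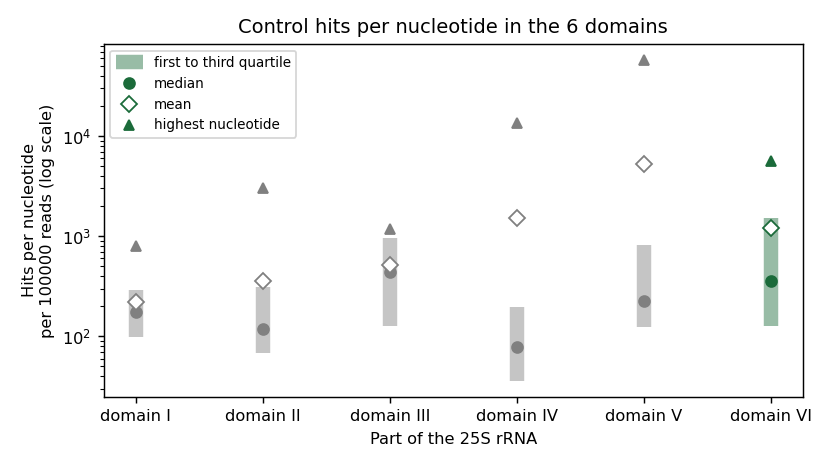
Control hits per nucleotide in the 6 parts of the 25S rRNA (log scale), with the interquartile range as a bar, the median as a circle, the mean as a diamond and the highest nucleotide as a triangle. Domain VI (green) had the second highest median, 361, and the third highest mean, 1219.

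Reverse transcriptase often misreads or skips a nucleotide that still carries a piece of a cross-linked protein, so that substitutions and deletions can mark sites of cross-linking. Misreading during PCR or sequencing, differences between copies of the rDNA and trimming or alignment of read ends also give such changes, and their part in the values below was not tested. Changes per hit are given for the 311 nucleotides of domain VI with at least 100 hits. The other 85 nucleotides, which include the whole sarcin-ricin loop, are not in these counts.

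Pooled over these nucleotides, 0.724% of hits in domain VI carried a change, against 1.12% in the rest of the 25S (0.647-fold). The pooled ratio depended on the parts with the most hits. Without domain IV in the rest, where 3.18% of hits were changed, the ratio was 0.970. Domain V, with 64.4% of all 25S hits, weighs most in that value and had a lower frequency (0.683%) than domain VI. Domains I, II and III had higher ones (1.18%, 0.912% and 1.25%). Leaving out the nucleotides within 65 of the 2 dominant maxima kept the ratio at 0.624. Substitutions made up 0.553% of hits in domain VI and 0.721% in the rest, and deletions 0.171% and 0.397%. Domain VI had the lowest substitution frequency of the 6 domains and the second lowest frequency of deletions, after domain V. In domain IV 1.83% of hits had a deletion, and without it the ratio of deletions in domain VI to the rest turned from 0.431 to 1.24. Domains I, II and III each still had more deletions per hit than domain VI (0.520%, 0.191% and 0.345%). The ratio of substitutions also turned with the summary, from 0.767 for pooled hits to 1.01 for the mean of single nucleotides. Without C3099 and T3304, the 2 most often changed nucleotides of domain VI, this mean gave 0.791. The median nucleotide was changed in 0.300% of hits in domain VI and in 0.333% in the rest.

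Of the 311 nucleotides, 50 (16.1%) were changed in at least 1% of hits, against a background of 19.9% in the rest of the 25S (410 of 2063). At a threshold of 5%, these were 18 nucleotides (5.79%) against 6.11% in the rest. Both shares lay close to or below the background, so the domain as a whole was not rich in changed nucleotides. The values nearest to the threshold of 1% were 1.05% at G3219 and 0.945% at A3376. Of the 50 nucleotides, 31 had substitutions and no deletion, and 13 had more deletions than substitutions. Substitutions alone reached 1% of hits at 37 of the 311 nucleotides (11.9%), against 282 of 2063 (13.7%) in the rest.

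The most often changed nucleotides fell into a few separate sites. Shown are the sites of the 10 most often changed nucleotides that had at least 20 changes. Each has 10 nucleotides on either side of that nucleotide, or of G3356 to T3358 in the last. Capitals mark the nucleotide or the block of neighbours with the same number of deletions.
3089 to 3109: ctaccatccgCtggattatgg
3147 to 3167: gtgatttcttTgctccacaca
3269 to 3289: ttgcaatgtcAttttgcgtgg
3294 to 3314: aaatcatttGTatacgactta
3331 to 3351: ttgtaagcagTAGagtagcct
3346 to 3368: tagccttgttGTTacgatctgct

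C3099 was the nucleotide most often changed per hit. It had 82 substitutions and 0 deletions in 233 hits, or 35.2%. Its neighbours C3096 and T3100 on the same plateau of 233 hits had 4 and 2 substitutions. In the rest of the 25S, 99.7% of the 395 C nucleotides with at least 100 hits were changed less often, but the highest frequency there, 71.5% at nucleotide 2175, was above it. Because C3099 is covered by few hits, it added only 82 of the 2646 substitutions at the nucleotides of the domain with at least 100 hits.

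T3304 came next, with 29 substitutions and 8 deletions in 120 hits (30.8%). It lies at the bottom of the valley between the peaks, close to the minimum of 100 hits. G3303, its neighbour, had the same 8 deletions in 137 hits.

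A3279 had 141 substitutions and 0 deletions in 1600 hits (8.81%) and is the nucleotide of the largest fall in hits, from 3173 to 1600. A3295, 1 nucleotide after the fall from 1013 to 391 hits, had 26 substitutions in 361 hits (7.20%).

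By number, T3380 had the most substitutions of the domain, 194 in 2841 hits (6.83%), with 0 deletions. It was followed by G3230 with 173 in 4758 hits (3.64%), A3279, G3216 with 112 in 2014 hits (5.56%), and C3099. G3230 and G3216 each directly followed one of the 3 largest rises of hits, at G3229 and A3215. A3376, after the other of these rises at A3375, had 26 substitutions in 2750 hits (0.945%). G3229 and A3215 themselves had 12 substitutions each.

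This arrangement was therefore counted over all rises of at least 10%, a count added after these values had been seen. Among the 25 nucleotides of domain VI that came right after such a rise, 8 (32.0%) were substituted in at least 1% of hits, and 35 of 112 (31.3%) in the rest of the 25S. Over all nucleotides with at least 100 hits, the share was 11.9% (37 of 311) in domain VI and 13.7% in the rest of the 25S. At the rising nucleotides themselves it was 2 of 25 (8%) and 11 of 109 (10.1%). Pooled over hits, 2.11% were substituted right after a rise in domain VI and 0.485% at its other nucleotides. G3230 and G3216, which had prompted the count, stayed in it, with 173 and 112 of the 424 substitutions right after a rise. In the rest of the 25S the values were 0.717% and 0.721%, with no excess after a rise. Median substitution frequencies right after a rise were 0.637% in domain VI and 0.487% in the rest, and 0.268% and 0.276% at the other nucleotides. Of the 12 distances from a rise or a fall that were examined, this one had the highest share in the rest. In domain VI the nucleotides right after a fall of at least 10% had a slightly higher one, 7 of 21 (33.3%), but in the rest 17 of 114 (14.9%).

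Deletions were gathered at even fewer places. All 819 deletions of domain VI fell on 34 nucleotides. These were 10.9% of its nucleotides with at least 100 hits, against 14.4% in the rest of the 25S (298 of 2063). G3356, T3357, T3358 and T3382 held 62.0% of the 819 deletions. At G3356 to T3358 there were 363, where the loss of all 3 nucleotides in 1 read would count 3 times. T carried 63.7% of the deletions, G 28.8%, A 5.74% and C 1.71%, while T made up 29.3% of the sequence of the domain. The rest of the 25S also had most deletions at T, 10928 of 18773, followed by G with 4916. There, T made up 25.1% of the sequence.

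G3356, T3357 and T3358 had 121 deletions each, in 1522 to 1536 hits (7.88% at G3356), and only 1 to 4 substitutions. Equal numbers at 3 neighbours are what the loss of all 3 nucleotides in the same reads would give. The loss of GTT from this repeated sequence can be placed at 6 positions that leave the same read. A smaller block of the same kind lay at T3341, A3342 and G3343, with 27 deletions at each nucleotide and 3 possible placements. T3341 also had 71 substitutions, so that 7.54% of its 1299 hits were changed.

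Of the 12 blocks of a single deleted nucleotide with at least 5 deletions, 8 were a T. T3157, the last of 3 T in a row, had 44 deletions and 13 substitutions in 363 hits (15.7%), the highest deletion frequency of the domain (12.1%). T3382, also the last of 3 T, had the largest number of deletions, 145 in 2659 hits (5.45%). G3254 in the main peak had 46 deletions, but 5555 hits, which gave 0.828%. Of the 17 blocks of equal deletion numbers of 5 or more, 14 could have been placed at another nucleotide with the same result. In 12 of these 14, the file placed them at the 3′-most position, which is the lowest chromosomal coordinate on this strand. The nucleotide that was lost in the cDNA is therefore known only within the repeat.

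**Figure D4:**
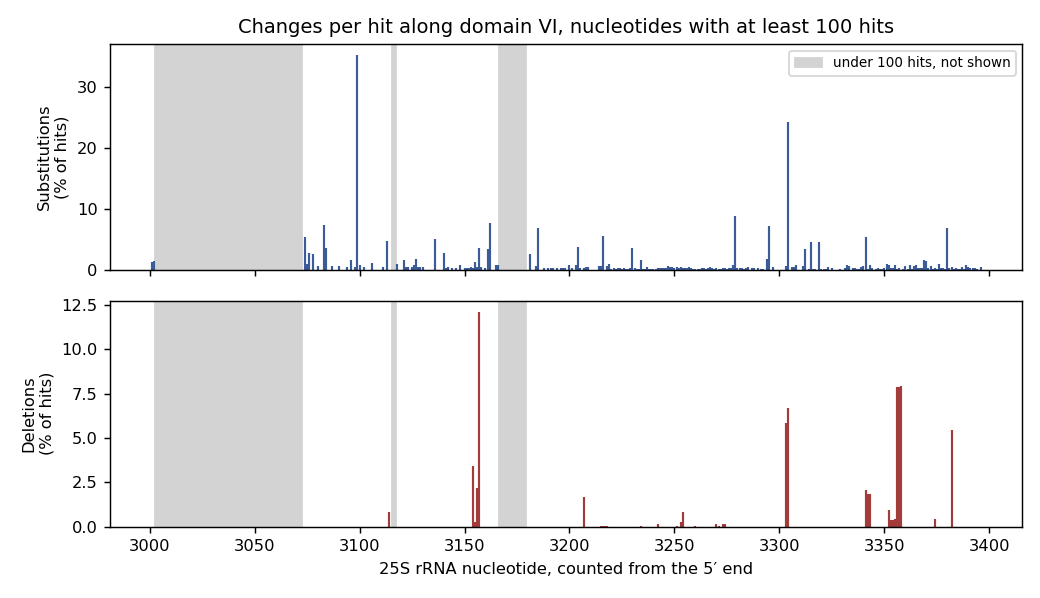
Substitutions (upper plot) and deletions (lower plot) as percent of hits at the nucleotides of domain VI with at least 100 hits. Grey areas mark nucleotides under this minimum. Substitutions were highest at C3099 (35.2%) and deletions at T3157 (12.1%). The main peak around nucleotide 3252 held mostly low values, but 3.64% of hits were substituted at G3230.

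The main peak carried few changes for its coverage, while at the 3′ end most changes lay at T3380 and T3382. Over 3229 to 3278, 0.455% of hits were changed, with 1084 substitutions and 99 deletions. Over the last 22 nucleotides 0.907% were changed, with 385 substitutions and 145 deletions, above the 0.724% of the domain. T3380 alone had 194 of these substitutions, and T3382 had all of these deletions and 12 substitutions. The next highest frequency there was 0.945%, at A3376. The 3′ end without T3380 and T3382 was not pooled separately. In windows of 36 nucleotides, with all nucleotides counted, the frequency was highest from 3073 to 3108 (2.01%), where C3099 lies, and from 3145 to 3180 (1.58%), closely followed by 3325 to 3360 (1.57%), which holds the GTT block, and it was 0.490% and 0.474% in the 2 windows of the main peak. The windows with the most hits were thus not those with the highest change frequency.

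Among the 4 bases, T was changed most often in domain VI, in 0.967% of pooled hits, and C least, in 0.446%. The value for T rests partly on T3357, T3358, T3380 and T3382, with 122 to 194 changes each. The median T nucleotide was changed in 0.368% of hits and the median A in 0.350%. T also had the highest frequency in the rest of the 25S, 1.72%, where A had the lowest, 0.732%. In domain VI, 19.1% of the T nucleotides with at least 100 hits were changed in at least 1% of hits, against 26.4% in the rest.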

How the data were processed

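RNA fragments from 1 CRAC library of untagged BY4742 cells were sequenced on a MiSeq. Per the methods, the authors cleaned reads with Flexbar, aligned them with Novoalign to the yeast genome (R64 in the submitters' processing notes), and built the pileup with pyCRAC. Versions are not given in the sources used here. The deposited hits, substitutions and deletions are whole numbers per 100000 reads per the file header. These deposited values are a score and not as counts, because the methods give pyPileup a limit of 100000, while the header reads as a scaling, and the values do not settle which applies. Depth is therefore unknown, and no interval or detection limit is given. The deposited tables of RNA classes and snoRNAs were not used. The labels' design text names a different tagged protein than the title, which does not touch the untagged control.

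Domain VI was taken by row order. Local maxima were at least 100 nucleotides apart, changes per hit used nucleotides with at least 100 hits, and a rise was at least 10% of the hits before it. The text names the local maxima, the 10 nucleotides most often changed, those leading in substitutions and deletions, the sarcin-ricin motif, the ends, and the 3 largest rises and falls. G3083 and C3162, the remaining members of these 10, had 7.28% and 7.65%, and other nucleotides were named after their values were seen. Limits of the domain, members and rules were chosen with earlier results of these data known. The functions recovered peaks, a changed nucleotide and pooled rates in 20 of 20 simulated pileups. These had triangular peaks and substitutions only. Counts around rises and falls, deletion blocks and a peak cut off by the 3′ end were not simulated. Python 3.11.15, numpy 2.4.6 and matplotlib 3.10.9 were used. With 1 library no comparison was tested.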

Additional observations from a re-analysis of the deposited data

How the results depend on the processing

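A share or ratio was taken as kept within 10% of its value, a count within 1.5 times and a position if identical. Of 57 alternative values, 33 were kept. Without the dominant peaks in the rest, the share of 25S hits in domain VI was 37.1%, the ratio of medians 2.60 and the ratio of means 4.07, which turned direction by leaving out those hits. Without the last 50 nucleotides, the share was 7.42%, the ratio of medians 1.67 and the ratio of changes per hit 0.551. With the domain starting 50 nucleotides later the ratio of means was 0.887, and 50 nucleotides earlier the ratio of deletions was 0.525. With a running mean over 11 nucleotides the maxima lay at 3267 and 3380. With the mean over nucleotides, the ratios were 0.823 for changes, 1.01 for substitutions, which turned, and 0.488 for deletions. Leaving C3099 and T3304 out of that mean, chosen after seeing the data, gave 0.666 for changes and 0.791 for substitutions. Without the most often changed nucleotide of each part, the ratios for changes, substitutions and deletions were 0.757, 0.877 and 0.531. Chosen after seeing the data, leaving domain IV out of the rest gave 0.970, 0.910 and 1.24, the last of which turned, and leaving out nucleotides 3356 to 3358 gave 0.242 for deletions. With at least 500 hits, nucleotide 3279 was the most often changed. At that minimum, 20 of 164 nucleotides (12.2%) were changed in at least 1% of hits, against 146 of 683 (21.4%) in the rest. Counting deletions alone, the most often changed was nucleotide 3157. At a threshold of 0.5%, 99 of 311 nucleotides (31.8%) were changed, against 822 of 2063 (39.8%) in the rest. The cause was not tested except where stated. No paired analysis was possible because the control was sequenced a single time, which also left no replicate to omit.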
